A study of Caenorhabditis elegans with 6 samples.

Results

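The linker (H1) histone genes of Caenorhabditis elegans were measured on 6 Affymetrix arrays of whole larvae, 3 of wild-type worms and 3 of zip-3(gk3164) worms. The 8 genes, his-24 and hil-1 to hil-7, were chosen by gene name from the array annotation, out of 17118 genes with a probe set of their own, and the family was put forward with the mutant and wild-type signals of these arrays already known. For that reason the differences between genotypes are given as a description, with no p-value printed for a member. Where members are counted or named as past a threshold of the fit, the share of all genes past it stands beside them, and the count is not independent evidence. All 8 genes were on the array, with 12 probe sets of the 22548 that were not controls, and all 12 were bright enough to enter the fit. The genes his-24 and hil-3 have 2 probe sets each, hil-7 has 3 and the other 5 genes have 1.

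Both groups of worms were synchronized with bleach, grown in liquid on bacteria for control RNAi, and harvested at L4, just before adulthood. The mutant carries the allele gk3164 of zip-3, which encodes a bZIP transcription factor linked to the mitochondrial unfolded protein response, and the groups share everything else that the labels state. No backcross, clone number or pool size is used here, and RNA came from the whole organism. Values are linear MAS5 signals that the authors scaled to a common mean in each array. A signal depends on the probes as well as the transcript, so levels are compared between arrays and not between genes, and with so few arrays each value is imprecise.

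Linker histones bind nucleosomes where the DNA enters and leaves, and they help chromatin to fold. Worms have several linker histone genes, of which his-24, encoding H1.1, is the best studied. HIS-24 is needed for the silencing of repeated transgenes in the germline and for normal germline development, and it has been linked to the HP1 protein HPL-2 and the deacetylase SIR-2.1. The mRNA of his-24 is polyadenylated, unlike that of most core histone genes, so it can be copied by the oligo-dT priming that the labelling of these arrays relies on. The product of hil-1, known as H1.X, has been described on cytoplasmic filaments of the worm rather than only on chromatin.

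Mutant array 3 stood apart from the other mutant arrays across the table. Over the tested probe sets its correlation was 0.890 and 0.925 with those 2 arrays but 0.943 to 0.958 with wild-type, while mutant arrays 1 and 2 correlated at 0.956 and wild-type arrays at 0.954 to 0.972 (across probe sets, which are not independent replicates). For zip-3 itself the brighter probe set read 1203.9, 1112.7 and 939.6 in wild-type and 384.6, 458.7 and 233.8 in the mutant, lowest in mutant array 3, a log2 difference of -1.64 ± 0.28. A dimmer zip-3 probe set read 116.8, 84.5 and 71.9 in wild-type and 64.4, 74.9 and 50.8 in the mutant, with overlapping groups and a difference of -0.51 ± 0.30. The labels do not say what gk3164 changes in zip-3, or whether the probes lie in that part.

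The linker histone genes did not move as one block. Signals of his-24 and hil-3 in the mutant averaged more than 2-fold those in wild-type, and hil-2 was higher by a smaller amount. In mutant arrays 1 and 2, hil-4 and hil-5 read well below wild-type, while mutant array 3 read like wild-type for both. The genes hil-1 and hil-6 differed by less than the spread between arrays, and the probe sets of hil-7 disagreed with one another.

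his-24 read 631.0, 700.7 and 910.8 in the 3 wild-type arrays and 1965.6, 1956.5 and 1470.2 in the 3 mutant arrays, on its brighter probe set. Every mutant array lay above every wild-type array, with mutant arrays 1 and 2 nearly equal and mutant array 3 the lowest of the mutant. The wild-type mean was 747.5 ± 145.7 and the mutant mean 1797.4 ± 283.4 (SD, n = 3 each), a ratio of 2.40. The log2 difference of his-24 in the fit over all probe sets was 1.27 ± 0.21 (SE, mutant minus wild-type, as in all differences below). A second his-24 probe set, whose suffix marks sequence shared with other transcripts, read 287.4, 599.1 and 374.5 in wild-type and 1318.9, 1243.1 and 509.6 in the mutant. Its difference of 1.23 ± 0.43 was close to that of the first, but its groups overlapped, because mutant array 3 read below wild-type array 2.

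hil-3, a numbered H1 gene of the same family, read 411.1, 735.1 and 611.9 in wild-type and 1884.1, 1220.5 and 1136.9 in the mutant. The groups did not overlap, and the lowest mutant array was mutant array 3, as for his-24. The hil-3 means were 586.1 ± 163.5 and 1413.8 ± 409.4 (SD, n = 3 each), a ratio of 2.41 and a log2 difference of 1.27 ± 0.29. This brighter probe set carries the suffix for shared sequence, and the other one for hil-3 does not. The unshared probe set read 442, 452 and 482.7 in wild-type and 1765.3, 1220.4 and 773.2 in the mutant, and its log2 difference was 1.37 ± 0.30. Its wild-type arrays were almost level, at 458.9 ± 21.2, and its mutant arrays spread over a 2.28-fold range without reaching them.

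hil-2 read 1576.2, 1084.1 and 1249.7 in wild-type and 1688.5 to 2047.5 in the mutant, with mutant array 1 at 2047.5, array 2 at 1762.7 and array 3 at 1688.5. The groups did not overlap, but the highest wild-type array came close to the lowest mutant array. The hil-2 means were 1303.3 ± 250.4 and 1832.9 ± 189.5 (SD, n = 3 each), with a log2 difference of 0.50 ± 0.19. Of the linker histone genes it had the smallest spread within groups, with a pooled SD of 0.22 on the log2 scale against a median of 0.31 over all genes tested.

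hil-7 read 75.0, 119.9 and 250.5 in wild-type and 380.5, 344.7 and 205.5 in the mutant on its brightest probe set. The wild-type arrays alone spanned a 3.34-fold range, and mutant array 3 read below wild-type array 3, so the groups overlapped. The log2 difference of this probe set was 1.19 ± 0.46, while the other ones for hil-7 gave 0.68 ± 0.52 and 0.02 ± 0.44. All 3 hil-7 probe sets carry the suffix for shared sequence and differ in size of change from near 0 to over 1 on the log2 scale, so no single value stands for the gene.

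**Figure D1:**
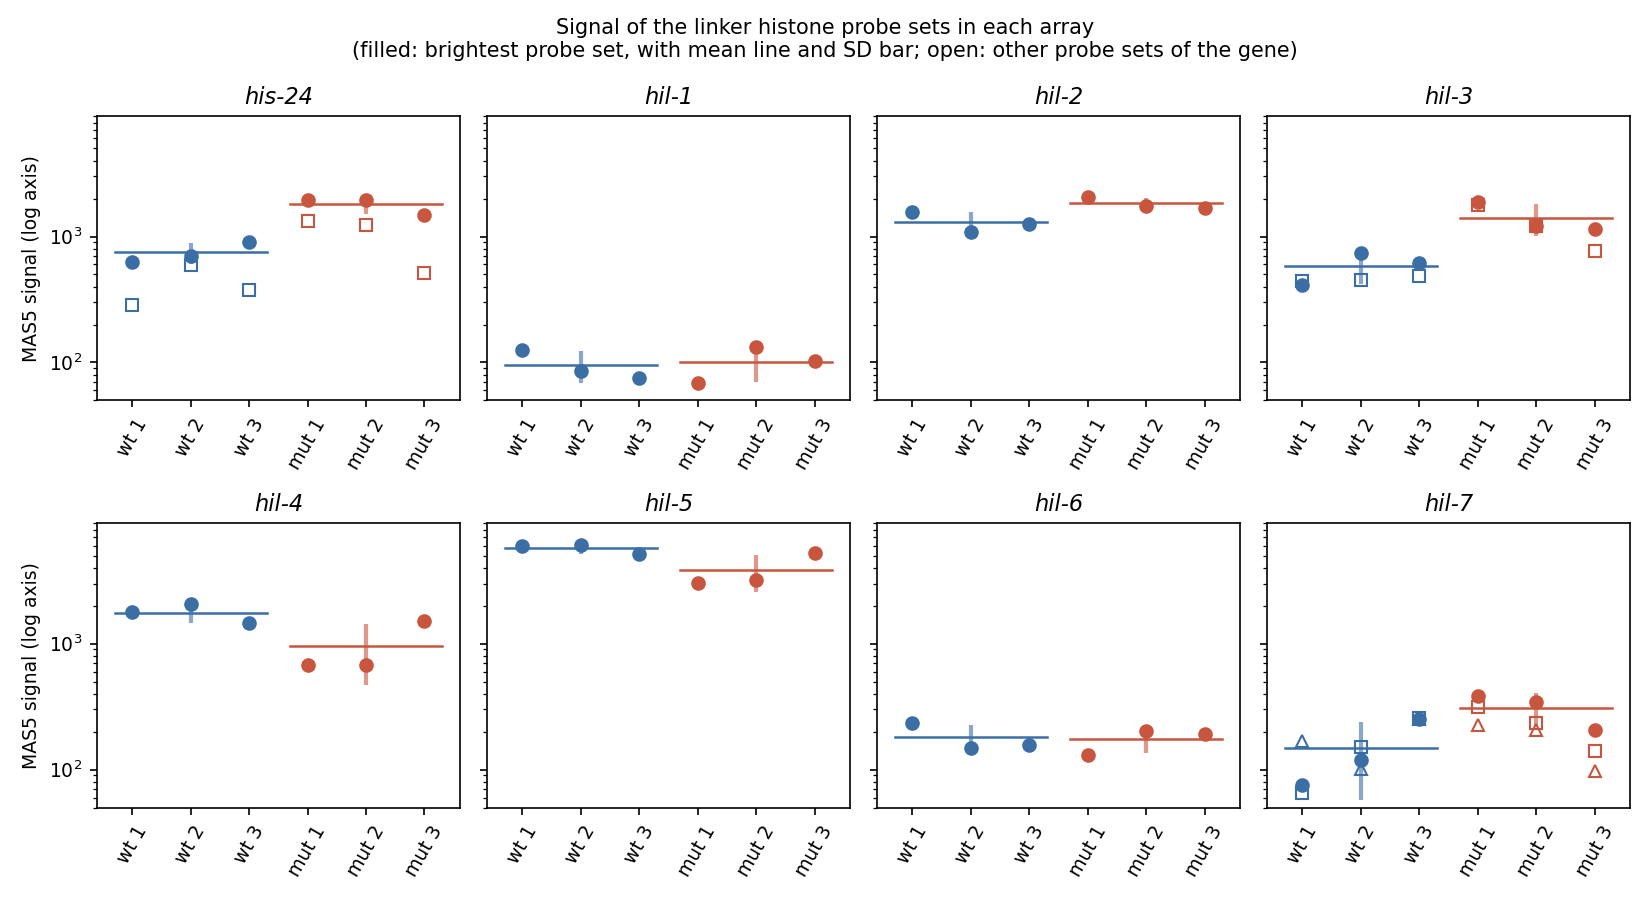
MAS5 signal (vertical, log axis) of each linker histone probe set in the 3 wild-type arrays (blue) and the 3 mutant arrays (red); filled points are the brightest probe set of the gene with its group mean and SD, and open points are the gene's other probe sets. For his-24 and hil-3 the filled mutant points all lie above the wild-type points, and for hil-4 and hil-5 mutant array 3 stands level with wild-type while the other mutant arrays stand below.

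hil-4 read 1773.2, 2045.1 and 1449.0 in wild-type and 677.4, 670.6 and 1507.9 in the mutant. Mutant arrays 1 and 2 were nearly equal and far below all wild-type arrays, and mutant array 3 lay inside the wild-type range. The hil-4 means were 1755.8 ± 298.4 and 951.9 ± 481.5 (SD, n = 3 each), and the log2 difference was -0.98 ± 0.34. Without mutant array 3 it was -1.37 ± 0.20.

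hil-5 also had mutant arrays 1 and 2 low and mutant array 3 high. It read 6003.4, 6094.8 and 5103.5 in wild-type and 3018.8, 3199.7 and 5232.3 in the mutant, with means of 5733.9 ± 547.9 and 3817.0 ± 1229.1 (SD, n = 3 each). Mutant array 3 again lay above the lowest wild-type array and the other mutant arrays lay below all of wild-type. The log2 difference of hil-5 was -0.63 ± 0.23 on all arrays and -0.88 ± 0.15 without mutant array 3.

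hil-1 read 126.7, 86.3 and 75.1 in wild-type and 68.5, 131.6 and 102.8 in the mutant, and its log2 difference was 0.06 ± 0.34. Its highest array was mutant array 2 and its lowest was mutant array 1, so the spread within the mutant covered the wild-type range. hil-6 read 232.8, 148.5 and 158.1 in wild-type and 129.9, 202.5 and 193.0 in the mutant, a difference of -0.04 ± 0.29. hil-1 was dim, near the signal of 68.7 below which probe sets were not tested. The hil-6 means, 179.8 in wild-type and 175.1 in the mutant, lay above the array medians of 123.9 to 139.1. The differences of both genes changed sign with single arrays left out, from -0.16 to 0.31 for hil-1 and from -0.16 to 0.17 for hil-6.

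Read against the whole table, 0 of the 8 linker histone genes passed an adjusted p of 0.05 (limma, Benjamini-Hochberg over 13529 probe sets), and 0.154% of the 10369 genes tested did, each gene by its brightest probe set. At an unadjusted limma p under 0.05, 4 members counted as higher, his-24, hil-2, hil-3 and hil-7, where 9.87% of all genes did, and 2 counted as lower, hil-4 and hil-5, where 10.1% did. The groups did not overlap for 3 higher members, his-24, hil-2 and hil-3, against 13.8% of all genes, and for 0 lower members against 9.34%. These shares are given for scale alone, because the family was put forward with this contrast known. Over the 8 members 5 differences lay above 0 and 3 below it, and their median was 0.28, and over all genes tested the median was 0.03. In absolute size the members had a median difference of 0.80 and all genes 0.30, and 3 members, his-24, hil-3 and hil-7, differed by at least 1, where 12.6% of all genes did. For hil-7 this size and the unadjusted threshold were reached on its brightest probe set alone, and its other probe sets gave 0.68 and 0.02.

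**Figure D2:**
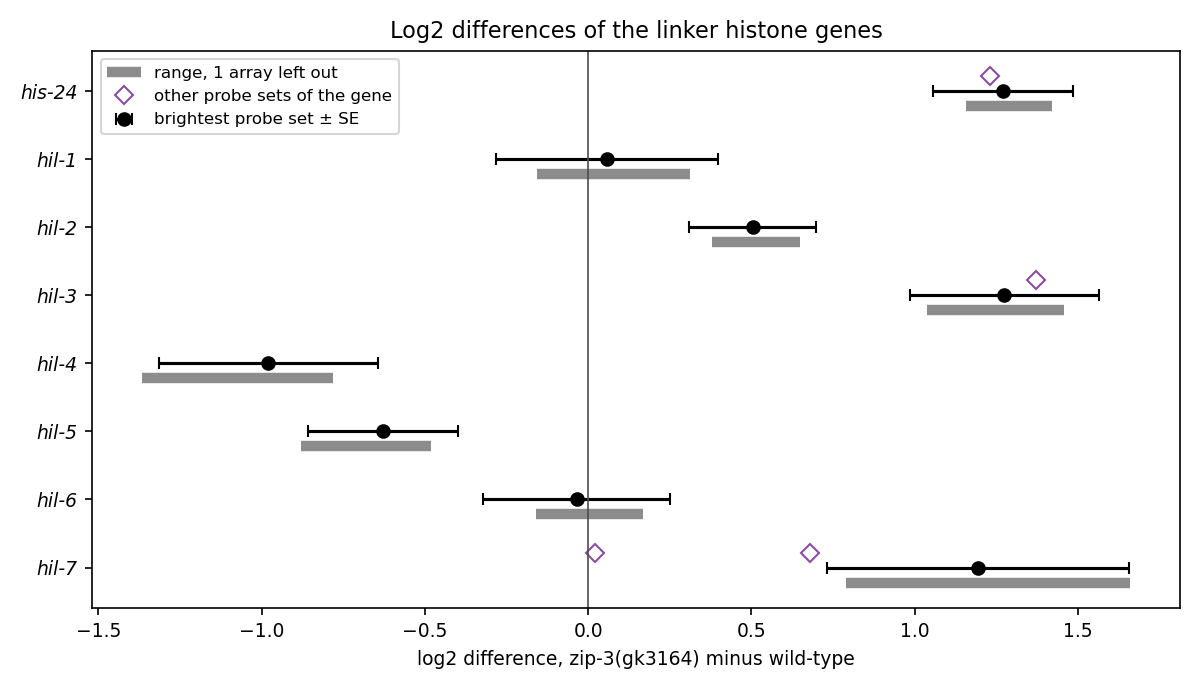
Log2 difference between mutant and wild-type (horizontal axis) for the 8 linker histone genes; black points with bars are the brightest probe set with its SE, open diamonds the gene's other probe sets, and grey bars the range of the difference when 1 array is left out in turn. his-24, hil-2, hil-3 and hil-7 stay above 0 in the grey bars, hil-4 and hil-5 stay below 0, and hil-1 and hil-6 cross it.

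Without mutant array 3, 2 linker histone genes passed the adjusted limma threshold as higher, his-24 at 1.41 ± 0.21 and hil-3 at 1.41 ± 0.30, where 5.98% of all genes did. In the same setting 2 passed as lower, hil-4 and hil-5, where 10.9% did. Without that array the groups did not overlap for 4 higher members, with hil-7 added, against 26.7% of all genes, and for 2 lower members, hil-4 and hil-5, against 24.5%. That setting is 1 of the 6 that leave out an array, and in the other 5 no linker histone gene passed, nor did any other probe set.

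Some members had a like order over the arrays, with the difference between genotypes left in. Over the 6 arrays the log2 signals of hil-4 and hil-5 correlated at r = 0.995, his-24 and hil-3 at 0.918, his-24 and hil-7 at 0.894, and hil-1 and hil-6 at 0.930. his-24 ran against hil-4 at r = -0.891 and against hil-5 at -0.897. These are descriptions of 6 points that share 2 genotypes and the same scaling, and with so few points many genes reach high values. For hil-1 and hil-6 the shared order did not follow genotype, since wild-type array 1 and mutant array 2 were high for both and mutant array 1 was low for both.

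The genes most like hil-4 and hil-5 in their order of arrays differed from those most like his-24. Among 10361 other genes, the closest to hil-4 was pgl-1, which encodes a core component of germline P granules, at r = 0.998 over the 6 arrays, followed by F26E4.5 and nspd-9. The closest to hil-5 were nspd-9 at 0.999, rnp-8, which encodes an RNA-binding partner of the germline poly(A) polymerase GLD-2, at 0.997, and Y116A8C.23. For his-24 they were wrt-1, a hedgehog-related gene, at 0.997, madd-4, which encodes a secreted guidance protein, at 0.996, and ZC449.1. For hil-3 they were sor-1, a gene of Hox repression, at 0.996, nhj-1 and wdr-20, and for hil-7 the hedgehog-related gene wrt-9 at 0.995, K09E4.4 and C14B9.3. hil-2 lay closest to dock-11 at 0.995, with ZC13.1 the third in order at 0.982. For hil-1 they were C05G5.1 at 0.990, the mitochondrial ribosomal protein gene mrpl-28 and F45E1.5, and for hil-6 mct-6 at 0.986, the GTPase gene ngp-1 and lpd-9. The number of genes with r above 0.95 was 365 for hil-4, 329 for hil-5, 244 for his-24, 139 for hil-7, 99 for hil-3 and 33 for hil-2. It was 6 for hil-1 and 5 for hil-6, so the patterns of hil-4, hil-5 and his-24 were the most common among the members on these arrays.

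Marker genes of the germline are given beside hil-4 and hil-5, and those of the moult beside his-24. All 17 germline markers tested had a negative difference, with a median of -0.78 and 0 passing the adjusted threshold. At an unadjusted limma p under 0.05, 7 were lower, where 10.1% of all genes were. The marker lists were chosen with earlier results of these data known, so their counts are not independent evidence. Set against the mean of wild-type, the germline median was -0.79 in mutant array 1, -1.42 in array 2 and -0.17 in array 3, where hil-4 stood at -1.36, -1.37 and -0.21 and hil-5 at -0.92, -0.84 and -0.13. Mutant array 3 was thus nearest to wild-type for the germline markers, hil-4 and hil-5 alike. The summed germline signal ran from 23543.3 to 30284.5 in wild-type and from 10976.4 to 26218.1 in the mutant. The 13 sperm markers were all negative too, with a median of -1.60 and array medians of -1.74, -2.39 and -0.39 in the mutant. Of these markers 0 passed and 11 were lower at the unadjusted level, where 10.1% of all genes were. Their summed signal was 73787.2 to 88676.5 in wild-type and 15317.9 to 63320.7 in the mutant. In whole larvae, fewer germ cells, less RNA per germ cell and a difference in larval stage cannot be told apart. The part of each in the hil-4 and hil-5 signals was not tested.

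All 17 moulting genes tested were positive, with a median of 1.74. At an unadjusted limma p under 0.05, 13 were higher, where 9.87% of all genes were. Of the 17 genes, 4 passed the adjusted limma threshold as higher, where 0.154% of all genes passed in either direction. This list too was chosen with earlier results known. Those 4 calls were lost with the replicate block and with any single array other than mutant array 3 left out, where limma called 0 probe sets, while the median of the list stayed between 1.31 and 1.89 with single arrays left out. dpy-6, whose product shapes the body, had a wild-type mean of 129.8 ± 44.2 and a mutant mean of 1432.7 ± 438.1 (SD, n = 3 each). For the moulting genes the wild-type array medians were -0.62, 0.16 and 0.44, and those of mutant arrays 1 to 3 were 1.91, 1.76 and 1.25. For his-24 the wild-type arrays stood at -0.23, -0.08 and 0.30, and the mutant arrays at 1.41, 1.41 and 0.99. Wild-type array 1 was lowest and mutant array 3 lowest of its genotype in both. The summed moulting signal was 4948.8 to 10519.5 in wild-type and 22281.8 to 31804.6 in the mutant, and the part of larval stage in the his-24, hil-3 and hil-7 signals was not tested. No marker of these lists was listed at 0.

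**Figure D3:**
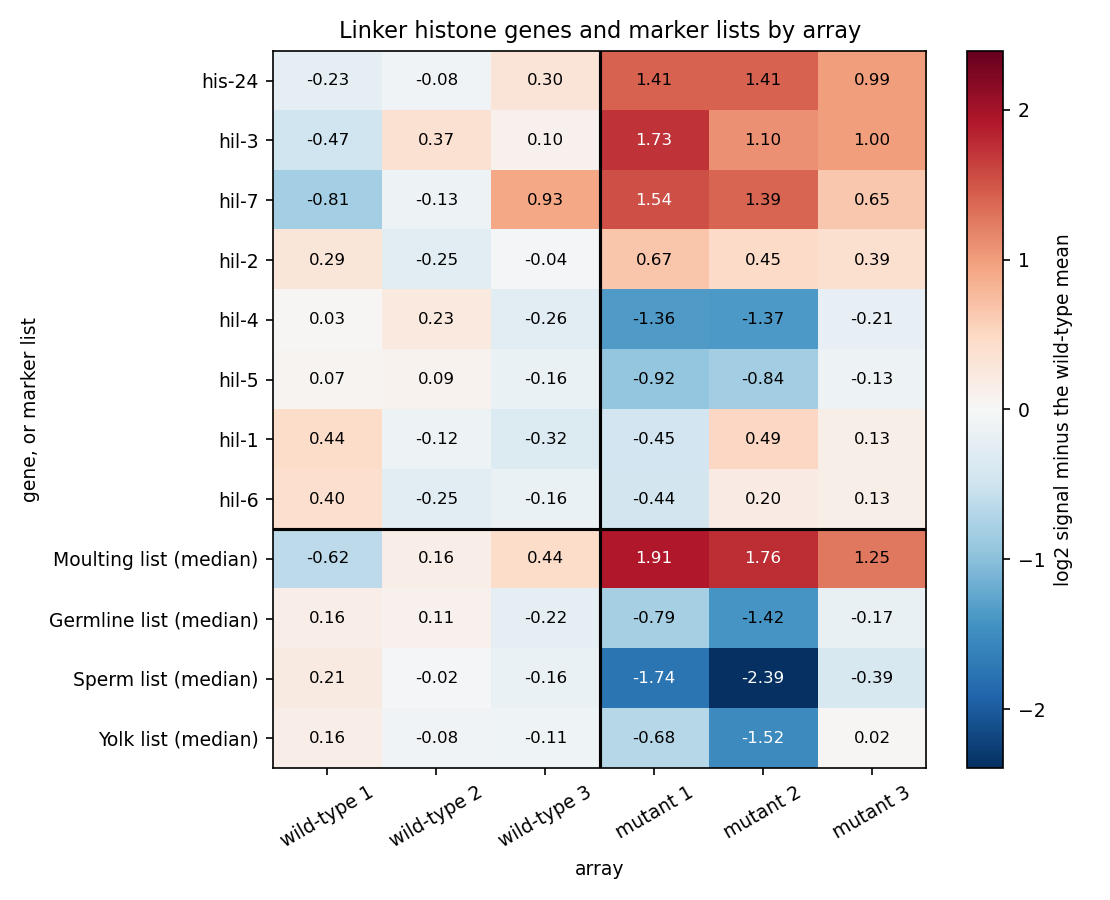
Log2 signal minus the wild-type mean (colour and printed value) for the brightest probe set of each linker histone gene (upper rows) and the median of 4 marker lists (lower rows) in each of the 6 arrays (columns). In mutant array 3, hil-4 at -0.21 and hil-5 at -0.13 stand near the germline list at -0.17, while his-24 and hil-3 keep 0.99 and 1.00.

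Other markers bear on the label of L4 whole larvae. col-19, a collagen gene switched on at the moult to adulthood, read 6163.4 to 9669.7 in wild-type and 1803.9 to 5988.3 in the mutant, and all 5 yolk protein genes tested were bright, with mean signals of at least 7206, so transcripts typical of adults were present in these arrays. The yolk median was -0.73, with array medians of -0.68, -1.52 and 0.02 in the mutant. Of the 5 yolk genes, 1 was lower at an unadjusted limma p under 0.05, where 10.1% of all genes were. In the adult cuticle list as a whole, 2 of the 3 tested members were positive, bli-1 and bli-2, and col-19 was negative. Body wall muscle markers had a median of 0.25 (9 tested, 7 positive), intestinal markers 0.05 (9 tested, 5 positive) and neuronal markers 0.16 (9 tested, 9 positive), and 0 of them passed. Pharyngeal markers, of interest for hil-1, had a median of -0.27 over 6 tested, which turned to 0.13 without wild-type array 3 and to 0.072 without mutant array 1, with wild-type arrays from -0.58 to 0.49 and mutant arrays from -0.92 to 0.11. Mutant array 1 was lowest for hil-1 and for the pharyngeal list, but wild-type array 1 was the highest wild-type array for hil-1 and the lowest for the list.

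Partners of linker histones were listed apart from the members. Of 14 proteins of heterochromatin and partners of HIS-24, 12 were tested, 5 with positive and 7 with negative differences, a median of -0.02 and 0 passing. hpl-1, an HP1 gene, had a wild-type mean of 126.5 ± 17.0 and a mutant mean of 242.3 ± 98.4 (SD, n = 3 each), with mutant array 3 at 130.7 inside the wild-type range. set-32, a histone methyltransferase gene, differed by -0.38 ± 0.22 and mrg-1, a chromodomain gene needed for the germline, by -0.49 ± 0.32. Only 1 member of this list, hpl-1, was higher at an unadjusted limma p under 0.05, where 9.87% of all genes were. At that level 0 were lower, where 10.1% of all genes were. The median over all genes tested was 0.03.

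Histone chaperones, which load and remove histones, had 3 positive and 8 negative differences among 11 tested, a median of -0.15, and 0 passing by limma at the adjusted threshold or at an unadjusted p under 0.05. Of all genes, 9.87% were higher and 10.1% lower at that unadjusted level. xnp-1, the worm ATRX gene, differed by 0.47 ± 0.21, hmg-3, a subunit gene of the FACT chaperone, by -0.57 ± 0.39, and the H3.3 chaperone gene hira-1 by -0.41 ± 0.29. Histone variant genes had a median of -0.37 over 8 tested, 5 of them negative, with 0 passing. Of them 1 was lower at an unadjusted limma p under 0.05, where 10.1% of all genes were. That gene was his-74, an H3 variant gene, which had a wild-type mean of 2945.9 ± 334.2 and a mutant mean of 1757.4 ± 489.8 (SD, n = 3 each). Its mutant arrays all lay below the wild-type arrays, as they did for 9.34% of all genes. his-70, another H3 variant gene, read 394.6 to 441.5 in mutant arrays 1 and 2 and 1137.8 in mutant array 3, against 876.0 to 1161.6 in wild-type, so mutant array 3 lay inside the wild-type range here as for hil-4 and hil-5. The centromeric H3 gene hcp-3 differed by -0.58 ± 0.30.

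HMG box and AT-hook proteins bind DNA too. The 5 genes listed for them were all tested, 2 positive and 3 negative, with a median of -0.05 and 0 passing. hmg-11, which encodes an AT-hook protein, read 393.3, 437.3 and 466.5 in wild-type and 1289.9, 1251.4 and 645.8 in the mutant, and its log2 difference was 1.23 ± 0.29. hmg-12, the other AT-hook gene of the list, read 2451.0, 2326.7 and 2211.2 in wild-type and 1710.5, 880.5 and 1929.8 in the mutant, a difference of -0.71 ± 0.29. The groups of neither gene overlapped, and they lay on opposite sides of wild-type. Of all genes, 13.8% had every mutant array above wild-type and 9.34% had every mutant array below it. hmg-5, a mitochondrial HMG box gene, differed by -0.21 ± 0.27.

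In the gene table of assembly WBcel235, which matched all 8 members by symbol, his-24 and hil-3 are on chromosome X, hil-2 and hil-7 on IV, hil-1, hil-4 and hil-6 on V and hil-5 on I. No member had another among the 10 protein-coding genes on either side, so the family is dispersed. The next protein-coding gene beside hil-4 is pgl-3, a P granule gene that was among the germline markers. pgl-3 read 827.7, 944.3 and 633.8 in wild-type and 458.7, 296.1 and 634.3 in the mutant. Its log2 difference was -0.84 ± 0.31, with mutant array 3 level with the lowest wild-type array.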

How the data were processed

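The authors deposited 1 linear intensity per probe set and array. Per the submitters' processing notes the tools were Affymetrix Expression Console and MAS5, with no version given. After trimming 2% at each end every array averaged 500.2, so each had been scaled to a common mean. MAS5 takes mismatch signal off the perfect match, so low values scatter widely after a log transform, and no detection calls were used here.

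Signals were taken to log2 with no offset. Of 22625 probe sets, 77 were controls, and those with a mean at or above the 40th percentile of the rest (a signal of 68.7) were tested with limma 3.58.1 in R 4.3.3, on genotype with an intensity trend; the tests were two-sided, adjusted by Benjamini-Hochberg over all 13529, with a threshold of 0.05. The platform annotation named 1 gene for 20766 probe sets, several for 887 (not used) and none for 895. A gene was represented by its brightest probe set over the 6 arrays. The fit was tested on simulated data. Arrays are labelled as biological replicates, and nothing says more of their separate origin.

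Members and lists were chosen with earlier results of these data known. Named genes were all members, up to 3 per list ranked by moderated statistic, and the 3 genes most correlated with each member. No sequence was used here.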

Additional observations from a re-analysis of the deposited data

How the results depend on the processing

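Of the settings tried (no filter or one at the 60th percentile, an offset of 16, quantile normalization, median centring, no intensity trend, other probe sets of a gene, the replicate block, single arrays left out), none changed the sign of his-24, hil-2, hil-3, hil-4, hil-5 or hil-7, and the third probe set of hil-7 gave 0.021. hil-1, hil-6 and hil-7 were not tested under the 60th percentile filter. With 1 array left out, 0 to 2 linker histone genes passed as higher and 0 to 2 as lower. The 2 in each case came without mutant array 3, where 5.98% of all genes passed as higher and 10.9% as lower. Lower members without overlap, a count added after seeing the data, numbered 0 to 2. There were 2 without mutant array 3, against 24.5% of all genes, and 2 without wild-type array 3, against 17.3%. Probe sets passing as higher numbered 39 with the offset, 0 with the replicate block and 0 to 801 with 1 array left out, against 16. Those passing as lower numbered 1 under quantile normalization and under centring, 0 without a filter, with the 60th percentile filter and with the replicate block, and 0 to 1350 with 1 array left out, against 2. Same-numbered arrays deviated from their group means with r = 0.02, 0.05 and -0.16, and no wild-type array correlated best with its own number.

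The HMG median turned to 0.042 under quantile normalization, the yolk median was -0.56 there, and the histone variant median was -0.15 without a filter. The pharynx median was -0.79 with the 60th percentile filter. With 1 array left out, list medians ran from -0.10 to 0.050 for heterochromatin, -0.31 to -0.12 for chaperones, -0.62 to -0.11 for variants, -1.14 to -0.48 for germline, -2.09 to -1.08 for sperm, -1.11 to -0.35 for yolk, -0.11 to 0.34 for intestine, -0.70 to 0.13 for pharynx, 0.089 to 0.44 for body wall muscle and 0.078 to 0.31 for neurons. The cause of these changes was not tested.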

Other observations

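hil-8, whose name belongs to the same series but which was not in the list of linker histone genes, read 105.5, 54.5 and 50.5 in wild-type and 91.6, 33.7 and 154.1 in the mutant, and its log2 difference was 0.24 ± 0.58, with the highest and the lowest array both in the mutant.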
